A study of Mus musculus with 6 samples.

Results

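The aryl hydrocarbon receptor (AHR) axis was followed here through 7 genes: the cytochrome P450 genes Cyp1b1, Cyp1a1 and Cyp1a2, the receptor gene Ahr, its partner Arnt, and the repressors Ahrr and Tiparp. They were found as every probe whose symbol in the platform annotation was one of these names, which gave 13 of 45281 probes and 7 of 19057 named genes. Cyp1b1 was chosen by its measured difference between the groups in earlier results of these data, with the other genes as its pathway, so the differences of all 7 are given as descriptions with no test. The RNA came from 6 stable clones of NIH3T3, an immortalized mouse embryonic fibroblast line of NIH Swiss origin, with 1 one-colour Illumina bead array per clone. FEAT-3, FEAT-15 and FEAT-20 carried pEF-DEST51 with the open reading frame of human FEAT (METTL13), driven by the elongation factor 1 alpha promoter, and were picked for high FEAT protein after 7 days in 10 µg/ml blasticidin S. The control clones ΔccdB-1, ΔccdB-2 and ΔccdB-3 carried the same plasmid without its ccdB gene and without FEAT. For them the labels gave no selection time or blasticidin dose. Each line is 1 clone, so a value that belongs to a clone and a value that belongs to its group are separated only by the 3 clones of each group.

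AHR is a ligand-activated transcription factor of the bHLH-PAS family that waits in the cytoplasm with chaperones. After binding a ligand such as dioxin or a tryptophan product, it enters the nucleus, pairs with ARNT and binds response elements with the core GCGTG near genes that include Cyp1a1, Cyp1a2, Cyp1b1, Ahrr and Tiparp. AHRR and TIPARP are feedback repressors: AHRR competes for ARNT, and TIPARP is a mono-ADP-ribosyltransferase that acts on the receptor. CYP1B1 oxidises polycyclic hydrocarbons, oestrogens and retinoids, and it is the CYP1 enzyme known for its expression in fibroblasts and other mesenchymal cells, whereas CYP1A2 is known from liver.

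Promoters of 6 of the 7 genes were in the RefSeq table of GRCm38.p6, each 300 bases long, 250 before and 50 after the start. Ahr had no entry. The core GCGTG, sought on both strands, was found in 5 of the 6, against 32.4% of all 32851 promoters of this length, and the longer TNGCGTG, which contains the core, in 1 of the 6, Ahrr, against 5.1%. Cyp1a2 had no match in its window. The promoters of Cyp1b1, Cyp1a1 and Ahrr are shown because all 3 are textbook AHR targets and their probes read differently from each other below; capitals mark GCGTG or its reverse complement CACGC. Cyp1b1 lies at chr17:79715012-79715311 (minus strand), Cyp1a1 at chr9:57697363-57697662 (plus strand) and Ahrr at chr13:74292282-74292581 (minus strand).
Cyp1b1: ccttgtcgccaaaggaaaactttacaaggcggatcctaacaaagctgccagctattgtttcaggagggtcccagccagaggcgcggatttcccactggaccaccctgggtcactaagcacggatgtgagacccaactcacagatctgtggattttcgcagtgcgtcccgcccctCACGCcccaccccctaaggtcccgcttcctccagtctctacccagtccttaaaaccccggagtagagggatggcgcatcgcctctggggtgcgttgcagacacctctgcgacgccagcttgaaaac
Cyp1a1: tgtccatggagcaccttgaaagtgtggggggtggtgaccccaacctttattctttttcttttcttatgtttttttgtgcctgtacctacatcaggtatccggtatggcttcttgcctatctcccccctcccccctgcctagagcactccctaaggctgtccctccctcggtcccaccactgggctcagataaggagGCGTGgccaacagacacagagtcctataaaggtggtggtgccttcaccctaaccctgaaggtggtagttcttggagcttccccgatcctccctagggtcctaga
Ahrr: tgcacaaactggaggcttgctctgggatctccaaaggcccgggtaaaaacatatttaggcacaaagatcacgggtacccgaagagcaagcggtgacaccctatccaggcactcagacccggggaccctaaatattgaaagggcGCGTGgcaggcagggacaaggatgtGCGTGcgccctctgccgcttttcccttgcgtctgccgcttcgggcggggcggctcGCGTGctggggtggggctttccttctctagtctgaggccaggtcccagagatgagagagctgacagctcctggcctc
The single match of Cyp1b1 begins 76 bases before its start on the minus strand of the printed sequence, and that of Cyp1a1 54 bases before its start on the plus strand. Ahrr has 3 matches on the plus strand, beginning 107, 82 and 27 bases before its start. A match of letters is no evidence of binding, and the best studied response elements of Cyp1a1 lie further upstream than this window reaches.

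Mean probe intensity ran from 616 to 735 over the 6 arrays, and 37.8% to 42.5% of an array's probes exceeded its background limit, which fell at an intensity of 91.8 to 98.8. The limit was set at the peak of the log2 intensity distribution plus 3 SDs, the SD being that of the part left of the peak. All 10 fibroblast markers looked at, among them Col1a1, Vim and Pdgfra, were above it on all 6 arrays. Of the markers of other cell types, only Cdh1 of 6 epithelial genes and Lyz2 of 4 macrophage genes were, and none of 5 endothelial or 6 hepatocyte genes. The summed fibroblast markers read 59320 to 65421 in control and 65133 to 76308 in FEAT clones, and their part in the results was not tested. The summed hepatocyte markers read 433 to 459 in control and 450.1 to 473 in FEAT clones, the summed epithelial markers 459 to 502 and 473 to 499, the endothelial ones 401 to 437 and 436 to 459, and the macrophage ones 465 to 891 and 571 to 678. Precision is limited by the number of arrays. Fewer cells that express a gene and less RNA per cell cannot be told apart in these bulk samples.

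Cyp1b1 was the only one of the 3 CYP1 genes with a signal above background, and its level was higher in every FEAT clone than in any control clone. Its single probe read an intensity of 486 in ΔccdB-1, 124 in ΔccdB-2 and 439 in ΔccdB-3, and 827 in FEAT-3, 1181 in FEAT-15 and 909.6 in FEAT-20. The groups did not overlap, all 6 arrays were above background, and ΔccdB-2 stood far below the other 2 controls. The group means were 349.7 ± 197 in control and 972 ± 185 in FEAT clones (SD, n = 3 each). After background correction and quantile normalization the difference between the log2 means was 1.85, a 3.62-fold higher level in FEAT clones. Log2 means of the uncorrected intensities, scaled by 1 factor per array, gave 3.17-fold. The group means of the uncorrected intensities themselves had a ratio of 2.78, which is another kind of average.

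ΔccdB-2 lay further from the other controls than the group means lay from each other on the log2 scale, though not in intensity. On the normalized log2 scale the group means were 1.85 apart. ΔccdB-2 lay 2.28 (4.85-fold) below the lower of the other controls, which differed from each other by 0.0011. The lowest FEAT clone lay 0.87 (1.82-fold) above the highest control. Without ΔccdB-2 the FEAT clones were 2.14-fold higher (log2 1.09), and against ΔccdB-2 alone 10.4-fold higher. ΔccdB-2 read 124, near its array's limit of 93.3, and folds against it depend on the background correction. The SD of Cyp1b1 over the control clones was 1.32 on the log2 scale, and 1.075 without that correction. The FEAT clones spanned 0.46 on the log2 scale. Their order depended on the scale: FEAT-15 was highest on both, but FEAT-20 was above FEAT-3 in intensity and 0.22 below it after normalization.

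**Figure D1:**
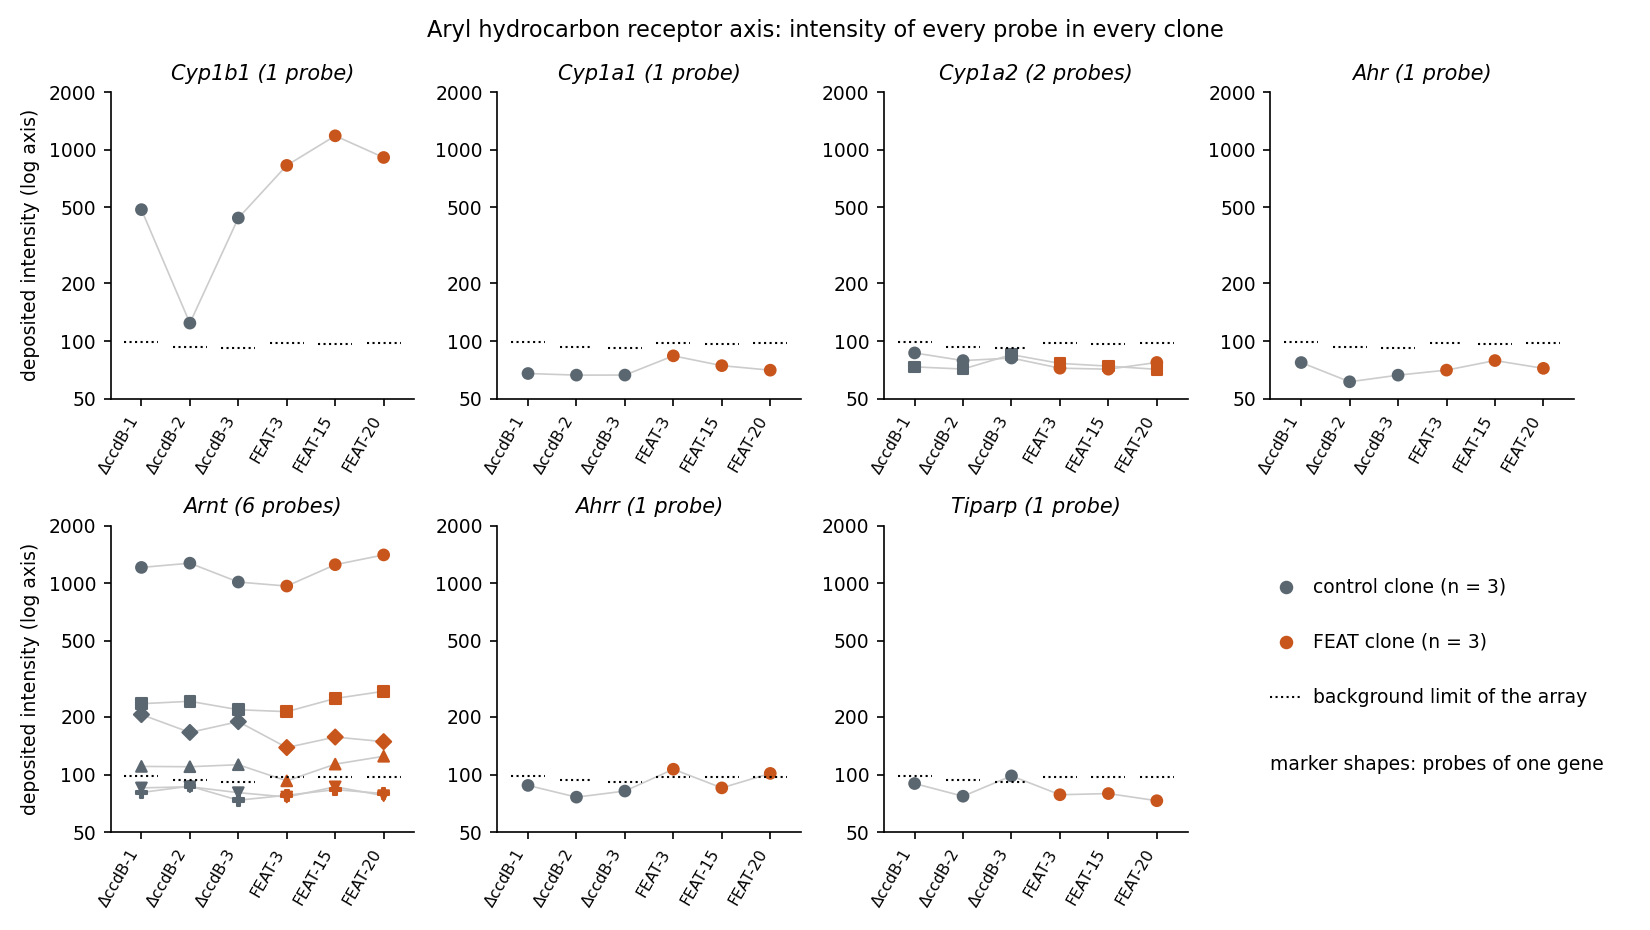
Deposited intensity (log axis) of all 13 probes of the 7 genes in each of the 6 clones, grey for control and orange for FEAT, with marker shapes for different probes of a gene and dotted marks for the background limit of each array. Cyp1b1 runs from 124 in ΔccdB-2 to 1181 in FEAT-15, the brightest Arnt probe stays between 965 and 1404, and the probes of Cyp1a1, Cyp1a2 and Ahr lie below the limit on every array.

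The other CYP1 enzymes gave no signal above background. Cyp1a1, the classical inducible AHR target, read 67.6, 66.3 and 66.4 in ΔccdB-1, ΔccdB-2 and ΔccdB-3 and 83.7, 74.4 and 70.4 in FEAT-3, FEAT-15 and FEAT-20. Its groups did not overlap, with every FEAT clone higher, but all 6 values were under the limit and give no fold. The brighter Cyp1a2 probe read 86.6, 79.0 and 81.5 in the control clones and 72.1, 71.3 and 77.3 in the FEAT clones, the opposite order, and its other probe 71.4 to 84.8 and 71.1 to 76.4. Values this close to background do not show that either gene is silent.

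The receptor gene Ahr was not above background on any array. Its single probe read 77.2, 61.2 and 66.3 in ΔccdB-1, ΔccdB-2 and ΔccdB-3 and 70.5, 79.1 and 72.0 in FEAT-3, FEAT-15 and FEAT-20, with overlapping groups. The array thus gave no measurable receptor transcript to set beside Cyp1b1. A single probe cannot tell a low transcript from a probe that reads it poorly.

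Arnt, the partner that AHR shares with the hypoxia factors, was well above background, with small differences on its brightest probes. Its brightest probe read 1208, 1271 and 1013 in the control clones and 965, 1248 and 1404 in the FEAT clones, a log2 difference of -0.02, and the next read 231 ± 12.0 and 245 ± 29.9 (SD, n = 3 each), a difference of 0.06. Another probe, annotated to a cDNA record other than the RefSeq transcript, was lower in every FEAT clone, at 206, 166 and 189 in ΔccdB-1, ΔccdB-2 and ΔccdB-3 against 138, 157 and 148 in FEAT-3, FEAT-15 and FEAT-20 (log2 -0.47). The next in brightness read 111 ± 1.45 and 110.1 ± 16.2, with 5 of 6 arrays above background, and the remaining 2 were not above it on any array. The 6 probes of Arnt therefore did not give 1 answer: 3 were above background on all arrays, and 1 of these separated the groups.

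Both repressors lay at the edge of detection. Ahrr read 87.7, 76.2 and 82.0 in the control clones, none above the limit, and 107, 85.1 and 101 in FEAT-3, FEAT-15 and FEAT-20, with FEAT-3 and FEAT-20 above it. Its groups overlapped, since FEAT-15 was below ΔccdB-1. Tiparp, usually one of the first transcripts to follow AHR activation, read 89.7, 77.0 and 98.4 in the control clones and 78.4, 79.5 and 73.0 in the FEAT clones. ΔccdB-3 was its one array above the limit, and FEAT-3 and FEAT-15 read above ΔccdB-2, so the groups overlapped.

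Over all 13 probes, 4 were above background on all 6 arrays, 3 on some and 6 on none, and 9 passed the filter on low values. The groups did not overlap for 4 of the 13, 2 higher and 2 lower in FEAT clones, beside 12.5% of all 45281 probes; the choice of Cyp1b1 used this contrast, so nothing is read from that count. Outside Cyp1b1 the log2 differences ran from -0.47 to 0.41, and the median of the 13 was -0.05, against 0.00 over all probes.

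The spread of Cyp1b1 between control clones was among the widest of the measured genes. Its SD over the 3 control clones was 1.32 on the log2 scale, where the median over 9246 genes above background on all arrays of at least 1 group was 0.166, and 12 genes had a larger one. Over the 3 FEAT clones its SD was 0.228, beside a median of 0.147, with 2234 genes larger. ΔccdB-2 stood apart more widely than this gene: it was at least 2-fold below both other controls in 32 genes and at least 2-fold above both in 41, against 0 and 2 for ΔccdB-1 and 2 and 10 for ΔccdB-3. Among genes by distance below both other controls Cyp1b1 ranked 2nd, after the lipid-binding protein gene Osbpl6. In ΔccdB-2 Osbpl6 read 68.7, under that array's background limit of 93.3, and Cyp1b1 read 124, not far above it. FEAT clones also had genes apart, with 37 below for FEAT-20 and 37 above for FEAT-15, and Cyp1b1 was not one of them.

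**Figure D2:**
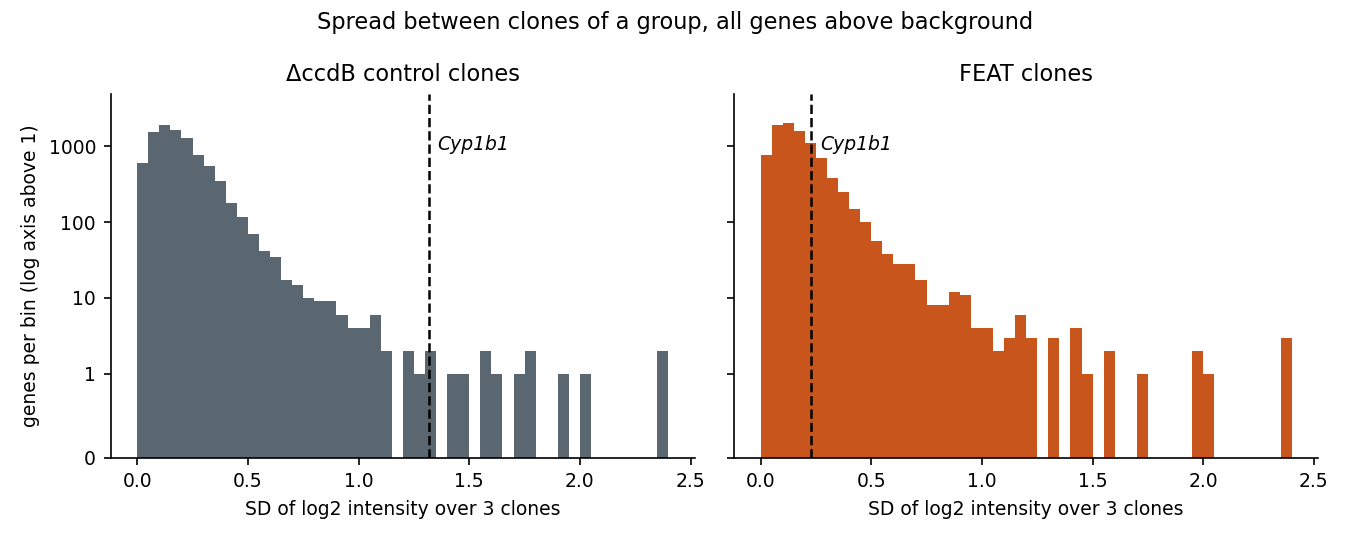
Number of genes (vertical, log axis above 1) by the SD of their normalized log2 intensity over the 3 clones of a group (horizontal), for control clones on the left and FEAT clones on the right, with the dashed line at Cyp1b1; SDs above the last bin are drawn in it. Cyp1b1 lies in the sparse right tail of the control clones at 1.32 and in the body of the FEAT clones at 0.228.

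The genes whose clone profile was most like that of Cyp1b1 were 2 early growth response factors. Likeness was the root mean square difference between 2 profiles over the 6 clones, each centred on its own mean, with 1 probe per gene. Egr2 and Egr3, zinc finger factors induced by growth signals, were nearest at 0.437 and 0.438, where the median gene was at 1.22. Egr3 read 302, 149 and 315 in ΔccdB-1, ΔccdB-2 and ΔccdB-3 and 495, 678 and 523 in FEAT-3, FEAT-15 and FEAT-20. Egr2 read 411, 169 and 336 in the control clones and 716, 757 and 598 in the FEAT clones. Both genes were lowest in ΔccdB-2 and highest in FEAT clones, as Cyp1b1 was.

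The next were Myl9 (0.679), a myosin regulatory light chain, Acot1 (0.709), an acyl-CoA thioesterase, the Notch target Hes1 (0.710), the orphan receptor gene Gpr176 (0.714), Btbd6 (0.728) and the integrin gene Itga3 (0.756). ΔccdB-2 was the lowest of the 6 clones in all 8, and the groups did not overlap in 5, beside 12.5% of all probes. These genes were chosen for their likeness to Cyp1b1, which has both features, so nothing is read from these counts. Without ΔccdB-2, 1 of these 8, Egr3, was still among the 8 nearest (0.110). Egr2 then ranked 19th, Hes1 129th, Gpr176 137th and Myl9 336th among the 9246 genes compared. Btbd6, Itga3 and Acot1 fell to ranks 4682, 4916 and 5398, so for these the likeness rested on that clone. The rest of the 8 nearest without ΔccdB-2 were Steap1 (0.0485), Setbp1 (0.1002), the SMAD inhibitor gene Smad6 (0.105), the clock gene Per1 (0.124), Svep1 (0.136), Krit1 (0.143) and the collagen gene Col5a1 (0.154).

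**Figure D3:**
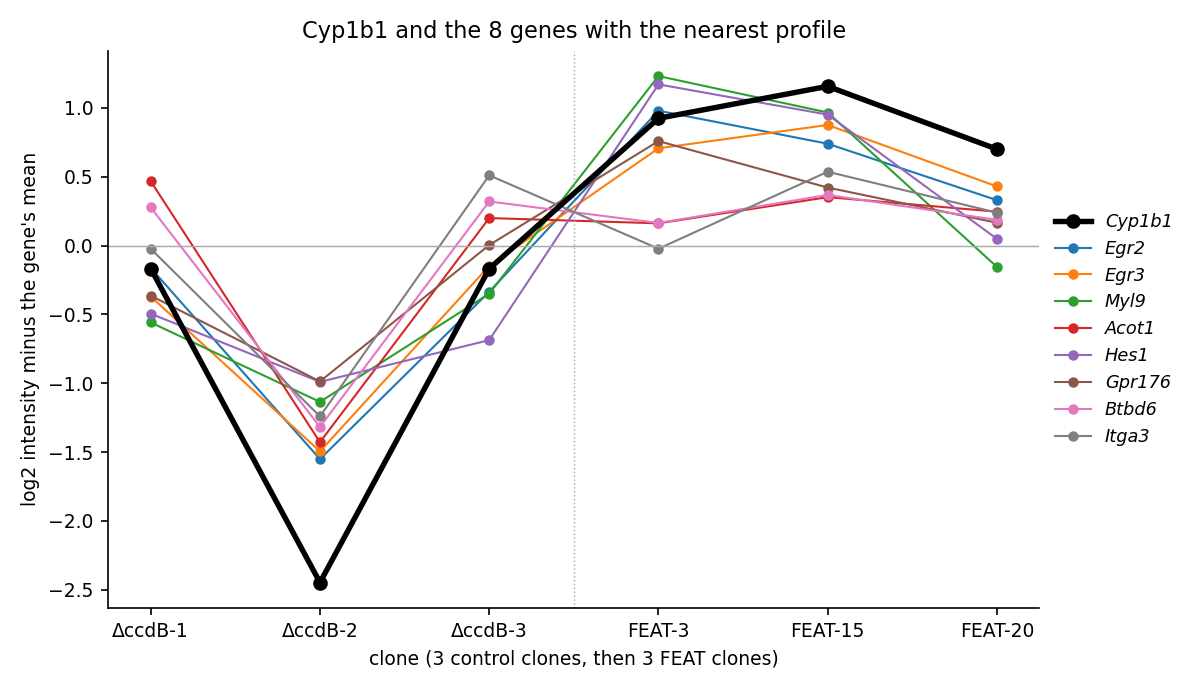
Normalized log2 intensity of Cyp1b1 (black) and of the 8 genes nearest to it, each minus its mean over the 6 clones (vertical), by clone (horizontal). All 9 lines have their lowest point at ΔccdB-2, where Cyp1b1 reaches -2.45, and 6 of them lie higher in every FEAT clone than in any control clone.

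The rest of the pathway was tested on 8 lists that exclude the members, with 1 probe per gene and p adjusted over all 27169 probes. Of 208 list genes 122 were tested, and 1 passed an adjusted p of 0.05, higher in FEAT clones; over all 13315 genes tested, 0.135% passed as higher and 0.0901% as lower. The median log2 difference of all genes tested was 0.01. A list's count and median are given as descriptions.

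The AHR gene battery, the genes outside the CYP1 family that AHR is known to induce, had 20 tested genes, 7 with a positive difference and a median of -0.11. None passed with limma, and at an unadjusted p under 0.05 there were 3 higher and 1 lower of the 20, where 5.2% of all 13315 genes tested were higher and 4.94% lower. Hes1 encodes a transcriptional repressor that Notch and AHR can both drive. Hes1 read 447, 302 and 359.7 in ΔccdB-1, ΔccdB-2 and ΔccdB-3 and 1105, 1167 and 668 in FEAT-3, FEAT-15 and FEAT-20 (log2 1.45, limma adjusted p = 0.0583). It passed without FEAT-20 (adjusted p = 0.006) and with 4 of the other settings, and its adjusted p ran up to 0.269 over all alternatives. The urokinase gene Plau read 266 ± 27.2 in the controls against 470.3 ± 163 (SD, n = 3 clones per group; log2 0.82, limma adjusted p = 0.146). Ptgs2, the inducible cyclooxygenase, had a log2 difference of 0.36 near background, with 1 of 3 control arrays above it, and the xanthine dehydrogenase gene Xdh of -0.51 (limma adjusted p = 0.466 and 0.472).

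The 2 battery genes most often measured beside Cyp1a1, named after their values were seen, had overlapping groups. Nqo1, a quinone reductase, read 3140, 2460 and 2598 in the control clones and 3778, 3207 and 2347 in the FEAT clones (log2 0.12, limma adjusted p = 0.915). Aldh3a1, an aldehyde dehydrogenase, read 2290, 2243 and 2645 in ΔccdB-1, ΔccdB-2 and ΔccdB-3 but 2084, 4322 and 714 in FEAT-3, FEAT-15 and FEAT-20. Its control clones were close together, including ΔccdB-2, and its FEAT clones spread on both sides of them (log2 -0.43, limma adjusted p = 0.846; 0.35 without FEAT-20). The clone order of Aldh3a1 was thus not that of Cyp1b1.

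Among other bHLH-PAS factors, the family of AHR and ARNT, 8 genes were tested, 5 with a positive difference and a median of 0.16, and Per1 rose. At an unadjusted p under 0.05 with limma, 4 were higher, Per1 included, and 1 lower, beside 5.2% and 4.94% of all genes tested. Per1, a period repressor of the circadian clock, read 465, 394 and 412 in ΔccdB-1, ΔccdB-2 and ΔccdB-3 and 661, 923 and 748 in FEAT-3, FEAT-15 and FEAT-20, a 1.84-fold higher level (log2 0.88, SE 0.14, limma adjusted p = 0.0370). Its groups did not overlap on this probe or on its other 2, which had log2 differences of 0.75 and 0.64 and did not pass (adjusted p = 0.131 and 0.245), the last with 1 array above background. The call was lost without ΔccdB-1, ΔccdB-3, FEAT-3 or FEAT-15 (adjusted p = 0.207, 0.148, 0.136 and 0.11) and with the mean of its probes (0.0803).

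Per2 and Per3, the other period genes, had positive differences and Arntl, the clock activator that pairs with CLOCK, a negative one, none of which passed. Per2 read 878, 493 and 522 in the control clones and 1009, 1257 and 869 in the FEAT clones (log2 0.75, limma adjusted p = 0.292). Per3 read 166 ± 43.4 and 224 ± 32.5 (SD, n = 3 each; log2 0.55, adjusted p = 0.408 with limma). Arntl read 518, 459 and 674 in ΔccdB-1, ΔccdB-2 and ΔccdB-3 and 274, 328 and 559 in FEAT-3, FEAT-15 and FEAT-20 (log2 -0.67, limma adjusted p = 0.394). FEAT-20 lay within the range of the controls for Arntl, and ΔccdB-1 above FEAT-20 for Per2.

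**Figure D4:**
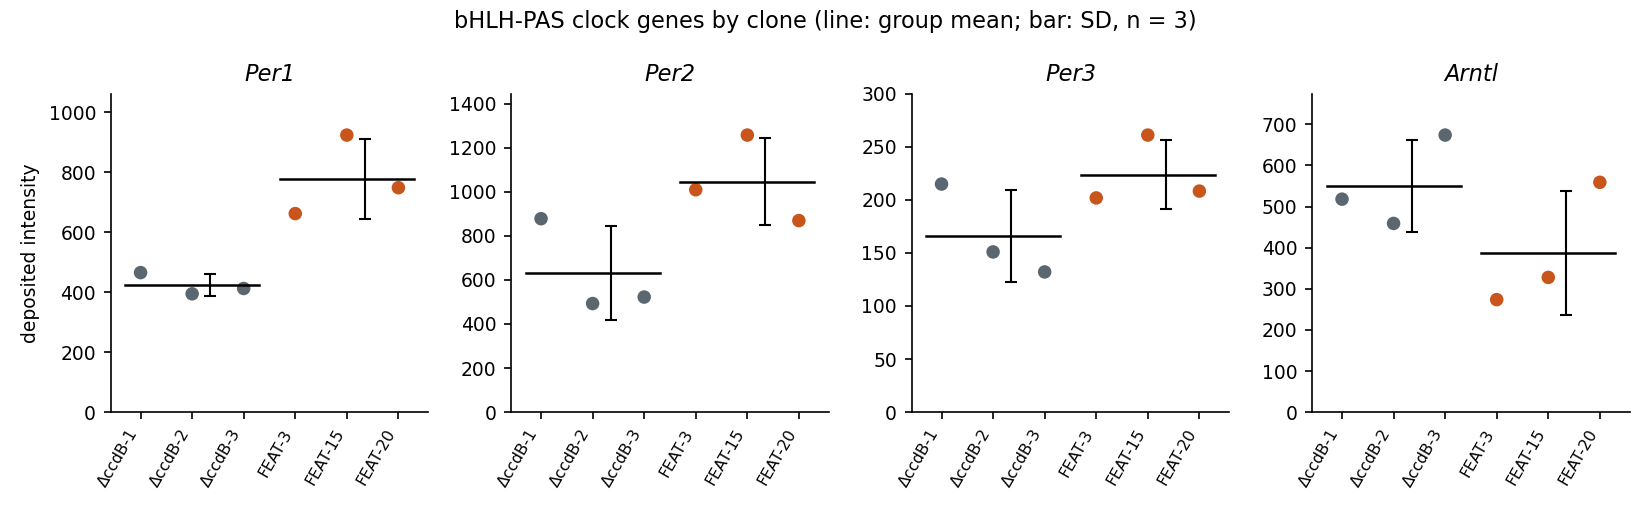
Deposited intensity (vertical, from 0) of the brightest probe of Per1, Per2, Per3 and Arntl in each clone, grey for control and orange for FEAT, with the mean of each group as a line and its SD as a bar (n = 3). Per1 is the one of the 4 whose groups do not overlap, at 394 to 465 in control and 661 to 923 in FEAT clones.

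The machinery that serves AHR and the P450 enzymes had small differences. Of 14 tested chaperones and coregulators of AHR 8 were positive, with a median of 0.02 and a range of -0.31 to 0.19; the acetyltransferase genes Ep300 and Crebbp had differences of -0.27 and -0.31, the coactivator Ncoa2 of 0.19, without an array above background in control clones, and the transcription factor gene Sp1 of 0.12. Of 17 electron donor and haem genes, all above background on all arrays, 6 were positive, with a median of -0.09. Those with the smallest p were the haem synthesis genes Urod at -0.24 and Uros at -0.26, the cytochrome b5 reductase gene Cyb5r3 at -0.21 and the haem oxygenase gene Hmox2 at -0.18. On its brightest tested probe no gene of either list passed with limma, and none had an unadjusted p under 0.05 in either direction. Of the other Cyb5r3 probes above background on all arrays, 1 differed by -0.24 with overlapping groups. The next differed by -0.44 and was lower in every FEAT clone (limma unadjusted p = 0.0095, adjusted p = 0.346).

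The other P450 genes had differences of both signs. Of 78 on the array 35 were tested, 7 were above background on all arrays, and 21 had a positive difference, with a median of 0.09. None passed with limma; at an unadjusted p under 0.05 there were 2 higher and 2 lower of the 35, beside 5.2% and 4.94% of all genes tested. Cyp3a13, a drug-metabolising P450 gene, read 163 ± 24.1 in the controls against 109 ± 11.7 (SD, n = 3 clones per group, log2 -0.85, limma adjusted p = 0.166). On this probe 2 of the 3 FEAT arrays were above background. Another Cyp3a13 probe differed by -0.87 with 1 FEAT array above background, and the last by -0.18 with no array above it. Cyp2d22 read 499 ± 97.4 and 359 ± 87.9 (log2 -0.60, limma adjusted p = 0.336). Cyp4v3, a fatty acid hydroxylase gene, differed by 0.40, and Cyp2c37 by 0.54 without any array above background.

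Genes for substrates and ligands had differences of both signs. Among 11 tested genes of oestrogen and retinoid steps, the median was -0.01, none passed with limma and 2 were lower at an unadjusted p under 0.05, beside 4.94% of all genes tested. Hsd17b7, a reductase of oestrogen and cholesterol synthesis, read 4146, 2651 and 3409 in ΔccdB-1, ΔccdB-2 and ΔccdB-3 and 1962, 2416 and 2467 in FEAT-3, FEAT-15 and FEAT-20 (log2 -0.63, limma adjusted p = 0.180, and 0.0455 without ΔccdB-2). The retinoic acid hydroxylase gene Cyp26b1 differed by 0.22, and Aldh1a3 and Esr1, at -0.32 and 0.16, were not above background on any array. Of 6 tested genes of tryptophan breakdown, which makes AHR ligands, none passed with limma and 1 was higher at an unadjusted p under 0.05, the formamidase gene Afmid at 0.37, beside 5.2% of all genes tested. Kyat1 differed by 0.17, Il4i1 by 0.33 with 2 arrays above background, and Aadat by -0.29 with none.

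The relatives of Tiparp in the PARP family gave 14 tested genes, 5 of them positive, and a median of -0.08. None passed with limma, and 1 was higher and 1 lower at an unadjusted p under 0.05, beside 5.2% and 4.94% of all genes tested. Parp16, of the endoplasmic reticulum, differed by -0.39, the antiviral gene Zc3hav1 by 0.38, Parp10 by -0.19 and the tankyrase gene Tnks2 by 0.21. The other tested probe of Zc3hav1 had the opposite sign, at -0.17, with overlapping groups.

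**Figure D5:**
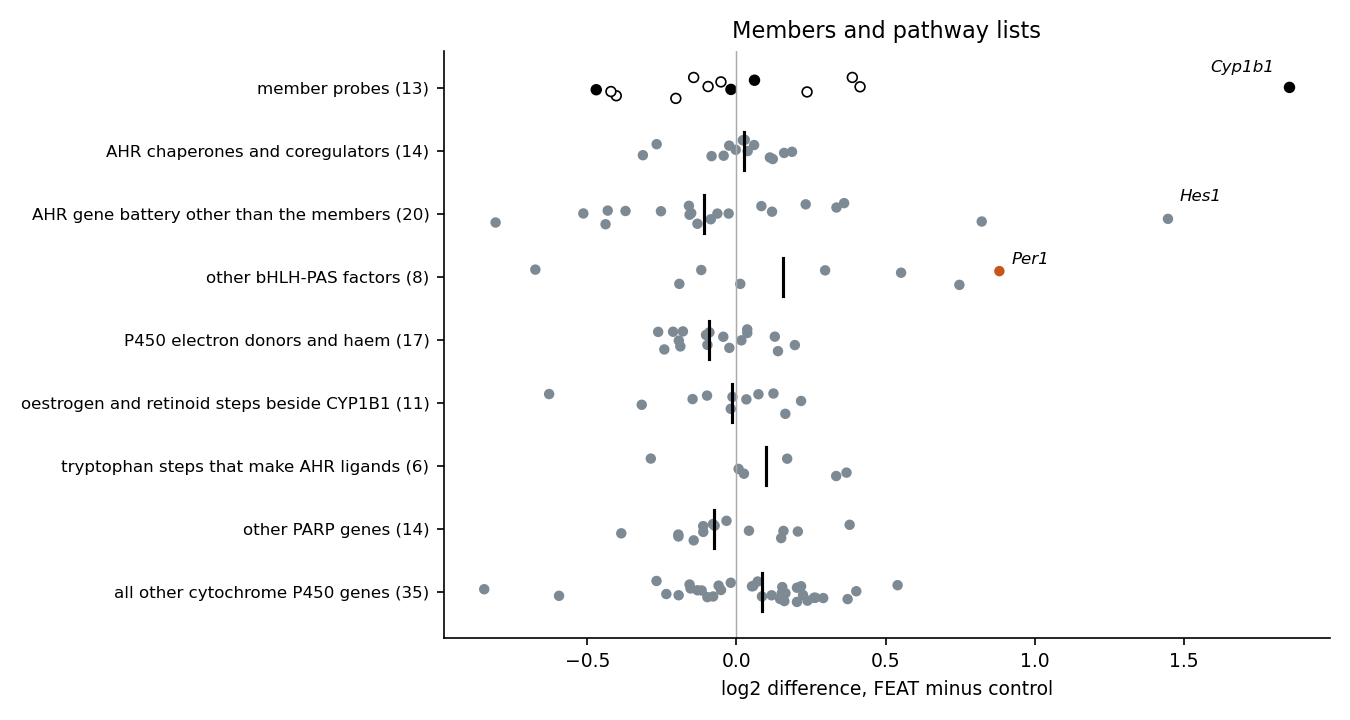
Log2 difference, FEAT minus control (horizontal), of the 13 member probes (top; filled where above background on all 6 arrays) and of the tested genes of 8 pathway lists, with the number tested in brackets, a bar at each list's median and orange for an adjusted p under 0.05. Cyp1b1 lies at 1.85, apart from the other member probes, and Per1 is the 1 list gene in orange.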

How the data were processed

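Total RNA of the 6 clones was amplified with the Illumina TotalPrep kit and labelled with Cy3, per the labels; the submitters' processing notes name BeadStudio without a version. The authors deposited 1 linear intensity per probe and array, with no background subtracted; no detection p was used here. The deposited value table holds the same intensity values times 1 factor per array (0.925 to 1.10) and served as an alternative.

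Intensities were corrected with normexp fitted to each array's signals (offset 16), quantile normalized and put on the log2 scale with R 4.3.3 and limma 3.58.1. The top 60% of probes by mean, 27169, were tested with lmFit and eBayes, 3 clones against 3, two-sided, with Benjamini-Hochberg adjustment over all of them. With 3 clones a side an exact permutation test reaches 0.1 at best. The planned neqc needs detection p and was replaced by normexp. Whether clones were cultured in parallel was not given. The p-values set the group difference against the spread between arrays within a group. With 1 array per clone, differences of clone, culture and array cannot be told apart in that spread. Symbols came from GEO's platform annotation: 34885 probes had 1 gene, 18 several and the rest none here. The brightest tested probe stood for a gene in the lists.

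The members, lists and tests were chosen with earlier results of these data known. Named are the members, the 4 genes of each list with the smallest p and any called, and the 8 nearest profiles, which were also compared without ΔccdB-2 after the data were seen. Of the list genes, 196 had a named probe. The filter and the limma fit were tested on data simulated from the normalized values, and the other steps were not. Alternatives were the background correction and offset, scaling, value table, filter, variance model, probe choice and omission of each clone.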

Additional observations from a re-analysis of the deposited data

How the results depend on the processing

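The log2 difference of Cyp1b1 kept its sign and its groups did not overlap in every alternative: 1.65 without normexp, 1.68 with an offset of 50, 1.87 with median scaling, 1.66 with the deposited value table, and 1.09 (without ΔccdB-2) to 2.24 (without ΔccdB-1) with a clone left out. Its SD over control clones ran from 0.00079 without ΔccdB-2 to 1.61 without ΔccdB-3. The groups did not overlap for 3 to 4 of the 13 member probes with the other normalizations, beside 8.73% to 12.5% of all probes, and for 4 to 6 with a clone left out, beside 21.9% to 24.3%. List genes passing numbered 2, Per1 and Hes1, with median scaling, the value table, no filter and a mean-variance trend, 0 with the mean of all probes (15 at an unadjusted p under 0.05, limma), and 0 to 2 with a clone left out. Over all probes 50 passed, and 0 (1934 at an unadjusted p under 0.05, limma, without ΔccdB-1) to 158 (without ΔccdB-2) with a clone left out; the cause was not tested. Signs turned for Aldh3a1 without FEAT-20 (adjusted p = 0.743; 0.569 to 0.906 over the omissions), Nqo1 without FEAT-3 (0.914; 0.618 to 0.95) and Ncoa2 with the mean of its probes (0.977), none of them called with limma. Of 120 values of the other member probes 7 turned sign: 1 Arnt probe read -0.02 and from 0.01 to 0.08 in 4 alternatives (median scaling, the value table, without ΔccdB-2 and without FEAT-3), another -0.05 and 0.09 without ΔccdB-2, another -0.10 and 0.05 without FEAT-3, and 1 Cyp1a2 probe -0.14 and 0.06 without ΔccdB-3. Of the same values 4 moved by more than the spread between clones, for Cyp1a1 and Cyp1a2, below background. No paired analysis was possible because the groups share only 1 clone number, which pairs nothing. Signal over background limits 9 of the 13 member probes.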

Other observations

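Clock genes outside the bHLH-PAS list were looked at after the values of Per1 were seen and are given as a description with no test. Of 12 such genes 8 were above background on all 6 arrays, and 7 of these had a positive log2 difference, FEAT minus control. The median difference of all genes tested was 0.01. Because the choice followed Per1, nothing is read from that count. The groups did not overlap for 1 of the 8, beside 12.5% of all probes; this was Bhlhe40, a clock repressor that read 1085, 691 and 588 in ΔccdB-1, ΔccdB-2 and ΔccdB-3 and 1127, 1384 and 1269 in FEAT-3, FEAT-15 and FEAT-20. Nr1d1, the repressor REV-ERB alpha, read 229.96 ± 25.3 in control and 369 ± 90.4 in FEAT clones (SD, n = 3 each).

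Dbp, a clock output factor of the PAR bZIP family, varied widely between clones of both groups. Its log2 SD was 0.74 in control and 0.76 in FEAT clones, beside a group difference of 0.81. Dbp read 3776, 1456 and 1421 in the control clones and 3332, 5993 and 2265 in the FEAT clones. Thus ΔccdB-1, not ΔccdB-2, was the control that stood apart. Rora was the 1 of the 8 with a negative difference, at -0.17.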
